A study of Homo sapiens with 9 samples.

Results

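The 7 genes described here are the interferon-induced proteins with tetratricopeptide repeats measured in OVCAR4 cells (IFIT1, IFIT2, IFIT3 and IFIT5) and the interferon-induced transmembrane proteins IFITM1, IFITM2 and IFITM3. They were taken by gene name from a count table of 58735 genes, and all 7 passed the filter on low counts that left 16928 genes for testing. OVCAR4 is an established ovarian serous adenocarcinoma line. Its cells were transduced with a lentiviral shRNA and selected with puromycin, and all 9 libraries carry such a vector. The scr control group (3 libraries) received a scramble shRNA, and 2 groups of 3 libraries received shMPZL3 #1 or shMPZL3 #2, independent hairpins against MPZL3, an immunoglobulin-domain transmembrane protein with a predicted role in cell adhesion. The labels call the genotype of the parental line wild type. The cells were transduced pools of a single line with no untransduced group among the libraries, so what the vector and the selection do by themselves is in every group.

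Type I and type III interferons bind cell surface receptors, the JAK kinases phosphorylate STAT proteins, and these join IRF9 in a complex (ISGF3) that binds interferon-stimulated response elements in promoters. IFIT and IFITM genes are among the classical targets of that complex, and IRF1 and IRF3 can drive several of them directly. IFIT proteins act in the cytosol, where IFIT1 holds RNA whose cap lacks ribose methylation and keeps it from translation, IFIT2 and IFIT3 assemble with IFIT1 and steady it, and IFIT5 holds RNA ends that carry a triphosphate. IFITM proteins sit in membranes and hinder fusion between an enveloped virus and the cell, IFITM1 mostly at the plasma membrane and IFITM2 and IFITM3 mostly in endosomes.

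The families lie in separate clusters of the GRCh38 assembly. The IFIT members span 137.3 kb of the plus strand (chr10:89283694-89421001), in the order IFIT2, IFIT3, IFIT1 and IFIT5, and the IFITM members span 19.9 kb (chr11:307631-327537), with IFITM2 and IFITM1 on the plus strand and IFITM3 on the minus strand. All 7 are protein-coding. Because the element that binds ISGF3 is what these genes are known for, the bases before their start sites are shown here. RefSeq promoter sequences (GRCh38.p14, 250 bases before to 50 bases after a start) covered 5 of the 7 members with 6 start sites, IFIT3 having 2. IFIT2 and IFITM2 were not covered. The 160 bases before each start are printed 5′ to 3′ on the strand of the gene, and capitals mark matches, on either strand, to a pair of GAAA core sites 2 bases apart (GAAANNGAAA, or TTTCNNTTTC read on the other strand), the core of the response element.
IFIT1 (chr10:89392463-89392622, plus strand): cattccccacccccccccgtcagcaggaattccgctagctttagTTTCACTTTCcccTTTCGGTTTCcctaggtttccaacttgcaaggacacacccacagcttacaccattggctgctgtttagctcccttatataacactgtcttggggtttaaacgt
IFIT3, first start (chr10:89327837-89327996, plus strand): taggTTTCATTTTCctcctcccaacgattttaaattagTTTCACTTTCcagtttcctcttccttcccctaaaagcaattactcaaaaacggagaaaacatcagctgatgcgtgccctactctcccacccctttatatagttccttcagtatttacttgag
IFIT3, second start (chr10:89332369-89332528, plus strand): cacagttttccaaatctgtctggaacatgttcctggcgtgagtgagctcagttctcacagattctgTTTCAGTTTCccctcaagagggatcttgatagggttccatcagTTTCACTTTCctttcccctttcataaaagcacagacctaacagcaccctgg
IFIT5 (chr10:89414408-89414567, plus strand): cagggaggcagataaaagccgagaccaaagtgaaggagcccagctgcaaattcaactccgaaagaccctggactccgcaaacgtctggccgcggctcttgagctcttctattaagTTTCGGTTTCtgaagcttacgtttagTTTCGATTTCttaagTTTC
IFITM1 (chr11:313880-314039, plus strand): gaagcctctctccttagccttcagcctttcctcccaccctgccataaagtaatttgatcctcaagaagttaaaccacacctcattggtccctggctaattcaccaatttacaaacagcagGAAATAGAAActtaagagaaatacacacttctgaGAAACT
IFITM3 (chr11:320861-321020, minus strand): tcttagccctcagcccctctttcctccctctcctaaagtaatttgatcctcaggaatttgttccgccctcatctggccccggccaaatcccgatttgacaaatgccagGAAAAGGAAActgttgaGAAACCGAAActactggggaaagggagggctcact

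All 6 member promoters held at least 2 matches, against 3.57% of the 35116 RefSeq promoters of the same length with at least 1 and 0.259% with 2 or more. A match is not particular to the members. In the list of other interferon-stimulated genes used below, 24 of 37 genes with a promoter sequence (64.9%) had at least 1. In the IFIT promoters every match lay on the opposite strand to the gene, and in the IFITM promoters on the same strand. The first base of the match nearest to the start lay 103 bases before it for IFIT1, 122 and 51 bases before it for IFIT3, and 35 bases before it for IFITM3, while the last matches of IFIT5 and IFITM1 ran across the start, so that only their bases before it are printed. These are matches of letters, and binding was not measured. The nearest transcript start of the GENCODE annotation lay 18 to 190 bases from the RefSeq start.

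Depth was 15040102 to 27835841 counts per library, and the 7 members took 0.0142% to 0.0462% of a library's counts. MPZL3 was counted 403 to 648 times per scr control library, 130 to 144 times under shMPZL3 #1 and 281 to 375 times under shMPZL3 #2, and the knockdown was deeper with shMPZL3 #1 (log2 difference between the hairpins 1.28 ± 0.16 SE, edgeR adjusted p = 5.72e-05). Of 9 markers of ovarian serous carcinoma, PAX8, MUC16, SOX17, EPCAM, MSLN and 3 keratins passed the filter, and WT1 had at most 13 counts in any library. The summed level of that list was 4944 to 5187 CPM (counts per 1000000 counts, on library sizes scaled by the TMM method) in scr control and 4977 to 6208 CPM across the knockdown libraries, and of its genes 0 were called in the grouped comparison, while with shMPZL3 #1 alone KRT7 and PAX8 were called higher and MUC16 lower. Markers of leukocytes summed to 1.23 to 1.75 CPM in scr control and 2.81 to 4.69 CPM in the knockdown libraries, with ITGAM and CD14 called higher and the defining PTPRC not called at 4 to 26 counts per library. ITGAM and CD14 had at most 46 counts in a library, both calls were lost without replicate 1 of scr control (edgeR adjusted p = 0.0723 and 0.131) or without its replicate 3 (0.0517 and 0.0875), and neither gene passed a filter of at least 10 counts in every library. With each hairpin alone ITGAM and CD14 were called higher as well. The markers CD3E, CD79A and NKG7 had at most 5 counts in a library. Fibroblast markers summed to 18.5 to 22.7 CPM and to 33.6 to 61.7 CPM, with COL1A1 and LUM called higher and DCN at 0, and both calls were lost when any control library was left out. With shMPZL3 #1 alone COL1A1 (1.38), COL1A2 (1.63) and LUM (0.79) were called higher, and with shMPZL3 #2 alone COL1A1 (0.63) and LUM (1.45) were. Endothelial markers summed to 8.16 to 10.2 CPM in scr control, 7.55 to 9.26 CPM with shMPZL3 #1 and 12.6 to 16.3 CPM with shMPZL3 #2, where CDH5 was called higher (log2 fold change 1.05, edgeR adjusted p = 0.00282). The part of these markers in the results below was not tested.

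MPZL3 knockdown cells held more RNA of 6 of the 7 genes, and IFITM2 was the exception. Grouping both hairpins, as the study did, IFIT1 was 7.11-fold, IFITM1 6.85-fold, IFIT2 4.83-fold, IFIT5 2.99-fold, IFIT3 2.74-fold and IFITM3 2.48-fold higher than in scr control. All 6 passed the edgeR quasi-likelihood test at an adjusted p under 0.05, adjusted by the Benjamini-Hochberg method over all genes tested, where 9.36% of the 16928 genes were called higher. With shMPZL3 #1 alone 6 of 7 were called higher (16.8% of all genes), and with shMPZL3 #2 alone the same 6 (9.36% of all genes). The median log2 fold change of the 7 was 1.58 in the grouped comparison, against 0.02 over all genes tested. For the 6 genes every knockdown library lay above every control library, which held for 11.8% of all genes. The exact permutation test over libraries gave p = 0.0119 for each of the 6, the smallest value that 6 against 3 libraries allow. In bulk RNA a larger number of cells expressing a gene and more RNA per cell cannot be told apart. Both hairpins were set against the same 3 control libraries, so their values are given side by side and are not independent of each other.

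**Figure D1:**
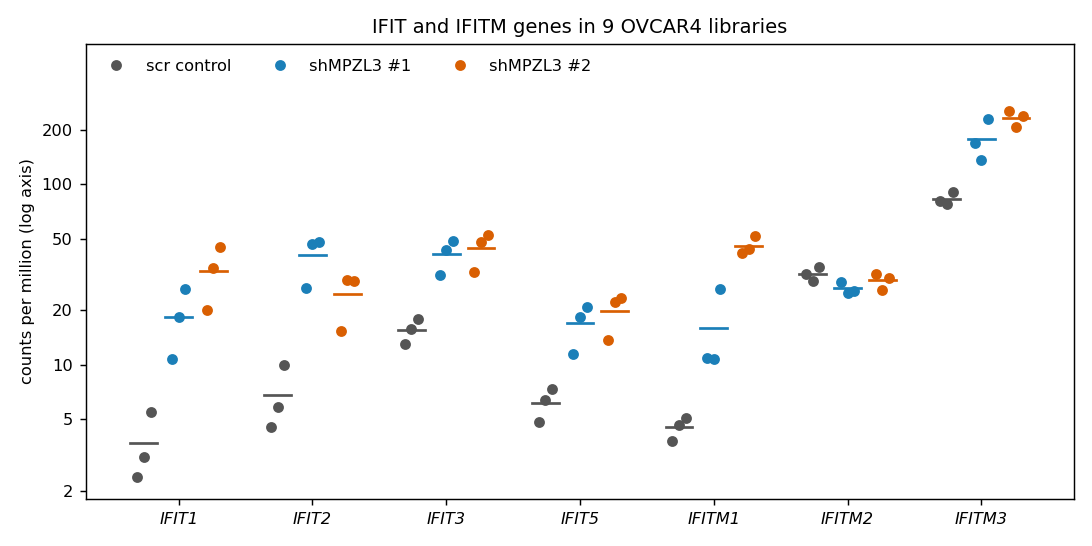
Level of each IFIT and IFITM gene in CPM (log axis), with 1 point per library and a bar at the mean of each group of 3 libraries. For 6 genes all knockdown points lie above all scr control points, whereas for IFITM2 the points of all groups lie between 25.0 and 34.8 CPM.

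IFIT1, the sensor of incompletely capped RNA, showed the largest fold of the IFIT family in the grouped comparison and with shMPZL3 #2, whereas with shMPZL3 #1 that of IFIT2 was larger (log2 fold change 2.58 against 2.35). Its level was 2.40, 3.08 and 5.49 CPM in the scr control libraries, 10.8, 18.3 and 26.3 CPM with shMPZL3 #1, and 20.01, 34.2 and 44.9 CPM with shMPZL3 #2 (replicates 1, 2 and 3 in that order, as for every gene here). The lowest knockdown library thus lay above the highest control library, and the hairpins overlapped. The log2 fold change was 2.83 ± 0.43 (SE) in the grouped comparison (edgeR adjusted p = 0.00134), 2.35 ± 0.35 with shMPZL3 #1 and 3.19 ± 0.35 with shMPZL3 #2. By size of the grouped rise it ranked 69 among the 16928 genes.

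IFIT2, which joins IFIT1 in complexes and is also known to promote apoptosis, had its higher mean with shMPZL3 #1. Its level was 4.53, 5.79 and 9.98 CPM in scr control, 26.7, 46.4 and 47.7 CPM with shMPZL3 #1, and 15.4, 29.6 and 29.1 CPM with shMPZL3 #2. Every knockdown library lay above every control library, and of the libraries of shMPZL3 #1 only replicate 1 lay within the range of shMPZL3 #2. The log2 fold change was 2.27 ± 0.35 (SE) in the grouped comparison (edgeR adjusted p = 0.00147), 2.58 ± 0.29 with shMPZL3 #1 and 1.88 ± 0.29 with shMPZL3 #2. The exons of IFIT2 share 65 bases with LIPA on the opposite strand and 356 bases with an RNA gene that had 36 counts in all libraries, and the libraries were not directional, so reads in those bases cannot be assigned by strand.

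IFIT3, the partner that steadies IFIT1, and IFIT5, which binds triphosphate RNA by itself, followed each other closely. The level of IFIT3 was 13.1, 15.7 and 18.0 CPM in scr control, 31.5, 43.2 and 48.8 CPM with shMPZL3 #1, and 32.6, 48.1 and 52.3 CPM with shMPZL3 #2. The level of IFIT5 was 4.79, 6.34 and 7.30 CPM in scr control, 11.5, 18.3 and 21.0 CPM with shMPZL3 #1, and 13.7, 22.4 and 23.3 CPM with shMPZL3 #2. In both genes the control libraries were the 3 lowest and the hairpins overlapped widely. The grouped log2 fold change was 1.45 ± 0.18 (SE) for IFIT3 (edgeR adjusted p = 0.000501) and 1.58 ± 0.24 for IFIT5 (edgeR adjusted p = 0.0014). Of the 21 pairs that 7 members form, this pair had the smallest root mean square difference of log2 CPM over the 9 libraries after centring each gene on its mean (0.107). The widest difference within the IFIT family was between IFIT1 and IFIT3 (0.731). In all 4 IFIT genes the library numbered 1 was the lowest of its group in all 3 groups. The genes were read in the same libraries, so they are not separate observations of this. IFITM2 and IFITM3 were lowest in replicate 2 of every group.

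IFITM1, the member of its family at the cell surface, had the largest fold of the IFITM genes and the widest spread between knockdown libraries. Its level was 3.76, 4.64 and 5.09 CPM in scr control, 10.9, 10.8 and 26.2 CPM with shMPZL3 #1, and 41.6, 43.6 and 51.9 CPM with shMPZL3 #2. The groups did not overlap, and replicate 3 of shMPZL3 #1 stood apart from the other libraries of that hairpin. The log2 fold change was 2.78 ± 0.51 (SE) in the grouped comparison (edgeR adjusted p = 0.00386), 1.82 ± 0.28 with shMPZL3 #1 and 3.34 ± 0.28 with shMPZL3 #2. Without replicate 3 of shMPZL3 #1 the value for that hairpin was 1.27 and was still called.

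IFITM3, the endosomal restriction factor, was the most abundant member. Its level was 81.2, 78.2 and 90.1 CPM in scr control, 169, 137 and 232 CPM with shMPZL3 #1, and 255, 207 and 239 CPM with shMPZL3 #2. The 3 control libraries were the lowest, and the hairpins overlapped through replicate 3 of shMPZL3 #1. The log2 fold change was 1.31 ± 0.18 (SE) in the grouped comparison (edgeR adjusted p = 0.000697), 1.11 ± 0.15 with shMPZL3 #1 and 1.49 ± 0.15 with shMPZL3 #2.

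IFITM2, also endosomal, did not pass the test in any of the comparisons. Its level was 31.9, 29.1 and 34.8 CPM in scr control, 28.7, 25.0 and 25.7 CPM with shMPZL3 #1, and 31.9, 25.9 and 30.3 CPM with shMPZL3 #2. All 3 libraries of shMPZL3 #1 lay below the lowest control library (exact permutation p = 0.1, the smallest that 3 against 3 libraries allow). Those of shMPZL3 #2 overlapped the controls. The grouped log2 fold change was -0.19 with a 95% interval of -0.43 to 0.05 (edgeR adjusted p = 0.261, exact permutation p = 0.0952), which leaves out a rise of the size seen in any other member. The intervals were -0.53 to -0.01 with shMPZL3 #1 (edgeR adjusted p = 0.1) and -0.37 to 0.14 with shMPZL3 #2 (edgeR adjusted p = 0.554).

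The IFITM genes resemble each other in sequence, and an annotated IFITM2 transcript runs through to the end of IFITM1, so the split of reads between them is uncertain. IFITM1 and IFITM2 share 351 exon bases on the same strand, 32.5% of the exonic length of IFITM1 and 22.7% of that of IFITM2. Of all 100-base windows of their transcripts, 27.5% in IFITM1, 18.2% in IFITM2 and 17.1% in IFITM3 occurred, read on either strand, in a transcript of another gene. The share was 6.27% in IFIT2 and 0 in IFIT1, IFIT3 and IFIT5. For IFITM3 the gene sharing the most windows was AC136475.5, a lincRNA on the opposite strand, ahead of IFITM1 and IFITM2. It shares 287 exon bases with IFITM3 and had 2 counts in all libraries. Summing IFITM1, IFITM2 and IFITM3 as 1 feature, a choice made after the data were seen, gave a log2 fold change of 1.15 in the grouped comparison (edgeR adjusted p = 0.00185), 0.89 with shMPZL3 #1 and 1.37 with shMPZL3 #2.

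**Figure D2:**
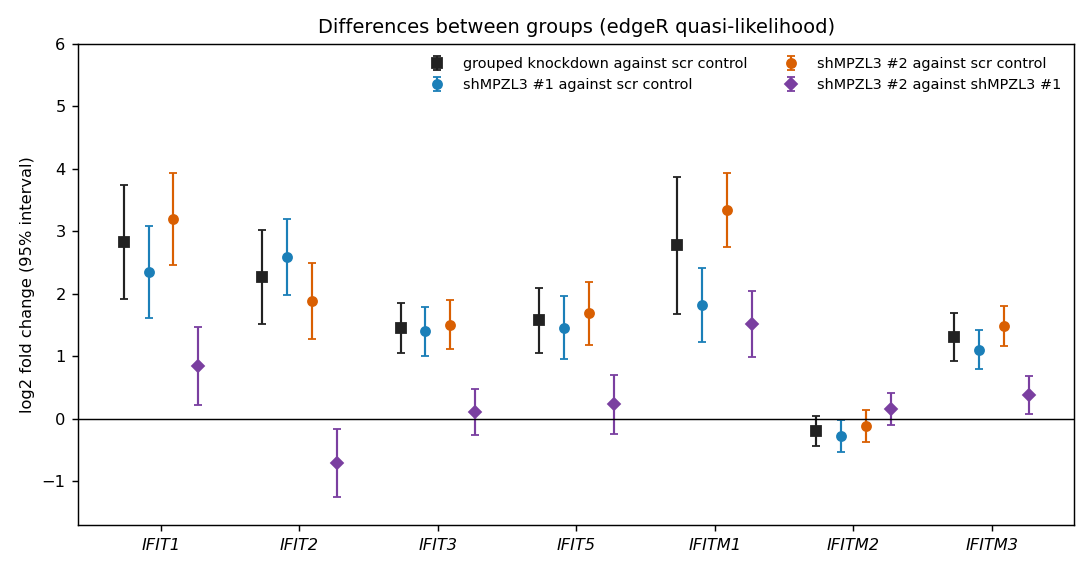
Log2 fold change of each member (vertical axis) with its 95% interval from the edgeR quasi-likelihood fit, for the grouped knockdown, for each hairpin against scr control, and for shMPZL3 #2 against shMPZL3 #1. In the first 3 comparisons the intervals of 6 genes lie above 0, and between the hairpins IFITM1 (1.52) is the only member that passed the test.

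The hairpins were then compared directly. Of the 7 genes 1 was called, IFITM1, which was 2.87-fold higher with shMPZL3 #2 (log2 difference 1.52 ± 0.25 SE, edgeR adjusted p = 0.00063). Over all genes tested 7.56% were called higher and 7.56% lower, so in this fit, which did not pair replicates, 1 call among 7 members is near the share over all genes. Over the 19 alternatives described at the end, which include a block by replicate number, the count of members called ran from 1 to 4. IFIT1 was also at higher levels with shMPZL3 #2 (log2 difference 0.84, 95% interval 0.22 to 1.47) and IFIT2 at lower levels (log2 difference -0.70, 95% interval -1.25 to -0.16), and neither passed after adjustment over all genes (edgeR adjusted p = 0.0637 and 0.0766). For IFITM3 the log2 difference was 0.38 with a 95% interval of 0.07 to 0.69 (edgeR adjusted p = 0.089). The intervals for IFIT3 (-0.26 to 0.48), IFIT5 (-0.24 to 0.69) and IFITM2 (-0.10 to 0.41) held 0. The number of members called changed as single libraries were left out: without replicate 1 of shMPZL3 #1 IFIT2 was called as well, without its replicate 3 IFIT1 and IFITM3 were, and without replicate 1 of shMPZL3 #2 IFIT1 was. An exact permutation test of 3 against 3 libraries cannot go below p = 0.1, the value IFITM1 reached.

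Ratios between members of a family, in which the depth of a library cancels, were compared for 9 pairs, chosen with the levels above already known. The log2 ratio of IFIT1 to IFIT2 was -0.88 ± 0.02 (SD, n = 3) for scr control, -1.17 ± 0.27 for shMPZL3 #1 and 0.40 ± 0.21 for shMPZL3 #2. It separated the hairpins without overlap, as did every other pair except IFIT3 to IFIT5 and IFITM2 to IFITM3. Its difference between the hairpins was 1.57 on the log2 scale (exact permutation p = 0.1, the smallest possible, 0.129 after Benjamini-Hochberg adjustment over the 9 pairs). Between the grouped knockdown and scr control its difference was 0.497 (exact permutation p = 0.417). The log2 ratios of IFIT1 to IFIT3 and to IFIT5 were higher in the grouped knockdown, by 1.29 and 1.19 (exact permutation p = 0.0119, adjusted 0.0268 for each). Those of IFIT2 to IFIT3 and to IFIT5 did not pass (adjusted 0.0536 and 0.0765). The ratio of IFIT3 to IFIT5 was steadier, at 1.34 ± 0.08 (SD, n = 3) in scr control and 1.23 ± 0.12 (SD, n = 6) in the knockdown libraries (exact permutation p = 0.19, adjusted 0.214). In the IFITM family the log2 ratio of IFITM1 to IFITM2 went from -2.81 ± 0.22 (SD, n = 3) in scr control to -0.11 ± 0.96 (SD, n = 6) in the knockdown libraries, a difference of 2.7 (exact permutation p = 0.0119, adjusted 0.0268). IFITM2 against IFITM3 went from -1.38 ± 0.04 (SD, n = 3) to -2.86 ± 0.29 (SD, n = 6), with the same p values. IFITM1 against IFITM3 went from -4.19 ± 0.19 (SD, n = 3) to -2.97 ± 0.73 (SD, n = 6). Its difference of 1.22 did not pass (exact permutation p = 0.0357, adjusted 0.0536), though the libraries did not overlap.

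**Figure D3:**
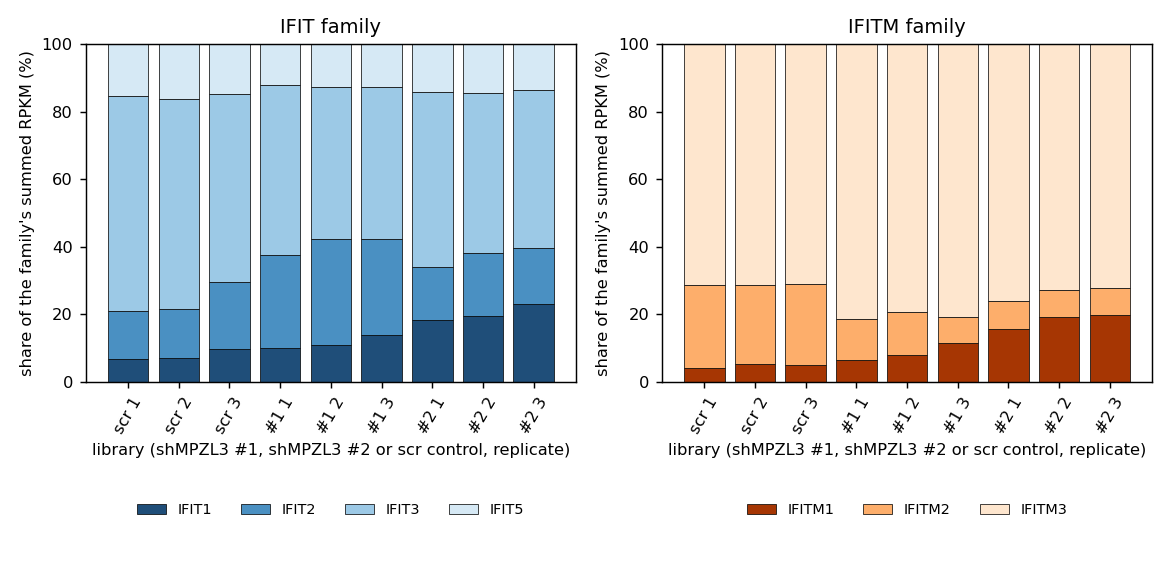
Share of each member in the summed RPKM of its family (percent, vertical axis) in each of the 9 libraries, IFIT genes on the left and IFITM genes on the right. IFIT1 takes 6.68% to 9.71% of the IFIT sum in scr control and 18.2% to 22.9% with shMPZL3 #2, and IFITM2 takes 23.2% to 24.5% of the IFITM sum in scr control, 7.82% to 12.7% with shMPZL3 #1 and 7.98% to 8.32% with shMPZL3 #2.

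Levels of different genes were compared per length, as RPKM (CPM divided by the exonic length in kilobases), with the caution above for the IFITM genes. In scr control IFITM3 led at 61.7 ± 4.6 RPKM (SD, n = 3), followed by IFITM2 at 20.7 ± 1.8, IFIT3 at 5.91 ± 0.93, IFITM1 at 4.16 ± 0.63, IFIT2 at 1.65 ± 0.695, IFIT5 at 1.53 ± 0.315 and IFIT1 at 0.792 ± 0.352. The ranges of IFIT2 and IFIT5 overlapped, and the lowest IFIT5 library lay just above the highest IFIT1 library (1.193 against 1.190 RPKM), whereas the others were further apart from their neighbours in that order. With shMPZL3 #2 IFITM1 was second at 42.3 ± 5.1 RPKM, above IFITM2 at 19.0 ± 2.0, and IFIT1 at 7.16 ± 2.70 stood beside IFIT2 at 6.02 ± 1.97 with overlapping ranges. With shMPZL3 #1 IFIT2 at 9.82 ± 2.86 RPKM lay above IFIT5 and IFIT1 and its range overlapped that of IFITM1 at 14.8 ± 8.2. IFIT3 made up the largest share of the IFIT sum in all 9 libraries, 55.6% to 63.7% in scr control and 45.0% to 51.8% in the knockdown libraries. IFIT2 made up 27.6% to 31.3% with shMPZL3 #1 and 15.7% to 18.8% with shMPZL3 #2.

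The other genes of the pathway were taken from lists. None of the 22 interferon ligand genes passed the filter: 13 had no count in any library, and the highest count of any was 16, for IFNE, while IFNB1, which encodes interferon beta, had at most 1 count in a library. Among the 6 receptor chains IFNGR1, a chain of the interferon gamma receptor, was called higher in the grouped comparison (log2 fold change 0.69 ± 0.18 SE, edgeR adjusted p = 0.0214), a call lost when any of the control libraries was left out. IFNAR1 and IFNAR2, which bind type I interferon, did not pass (log2 fold changes -0.08 and 0.44), nor did IFNLR1, IL10RB and IFNGR2, all in the grouped comparison. With shMPZL3 #1 alone IFNLR1, a chain of the type III receptor, was called higher too (0.38, edgeR adjusted p = 0.0243), and with shMPZL3 #2 alone only IFNGR1 was.

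In the grouped comparison, where 9.36% of all genes were called higher and 6.4% lower, 4 of 11 JAK-STAT and IRF genes were called higher and 0 lower. They were STAT2 (log2 fold change 0.73 ± 0.13 SE, edgeR adjusted p = 0.00282), a subunit of ISGF3, IRF1 (0.87 ± 0.12) and IRF7 (1.89 ± 0.43), transcription factors that are themselves interferon-induced, and the kinase JAK1 (0.38 ± 0.11). Without replicate 1 of scr control the count was 2, with IRF7 and JAK1 no longer called. The call on JAK1 was lost without replicate 2 of scr control too. IRF9, the DNA-binding subunit of ISGF3, was counted at most 53 times in a library and did not pass (0.92 ± 0.49, edgeR adjusted p = 0.22), and JAK2, IRF5, STAT3, IRF3, IRF2 and TYK2 did not pass either. With shMPZL3 #1 alone the count was 6, with the kinase JAK2 (0.78) and IRF5 (0.85) added, and with shMPZL3 #2 alone it was 3, without JAK1. Over all genes the share called higher differed too, at 16.8% with shMPZL3 #1 and 9.36% with shMPZL3 #2. USP18, which curbs signalling at the type I receptor, was called higher (1.12 ± 0.14, edgeR adjusted p = 0.000473), and the other feedback genes PIAS1, SOCS3 and SOCS1 lay between -0.06 and -0.02 on the log2 scale and did not pass.

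Of 11 tested RNA and DNA sensors and adaptors 6 were called higher and 0 lower in the grouped comparison, where the shares over all genes were 9.36% and 6.4%. The leading ones were IFIH1, the receptor for long double-stranded RNA (log2 fold change 2.67 ± 0.27 SE, edgeR adjusted p = 0.00011), IFI16, a DNA sensor (1.96 ± 0.31), TLR3, the endosomal receptor for double-stranded RNA (1.87 ± 0.30), and DDX58, which encodes RIG-I (0.86 ± 0.16). With shMPZL3 #1 alone 7 were called higher, with the adaptor MAVS (0.41) added, and the kinase TBK1 was called lower (-0.47, edgeR adjusted p = 0.0241), and with shMPZL3 #2 alone 7 were called higher, with CGAS (0.56) added, and 0 lower. Of 43 further interferon-stimulated genes 41 were called higher and 0 lower, with a median log2 fold change of 1.91, and in 40 of them every knockdown library lay above every control library. The count was 40 with shMPZL3 #1 and 42 with shMPZL3 #2, where 16.8% and 9.36% of all genes were called higher. Between the hairpins 12 of the 43 were called higher with shMPZL3 #2 and 0 lower, against 7.56% of all genes in each direction. IFI44 (4.30 ± 0.39 SE), XAF1 (3.89 ± 0.37), IFI27 (2.52 ± 0.25) and RSAD2 (3.33 ± 0.34), which encodes the antiviral enzyme viperin, had the lowest p values of that list. Only ADAR (0.28) and MX2 (0.25) did not pass there.

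**Figure D4:**
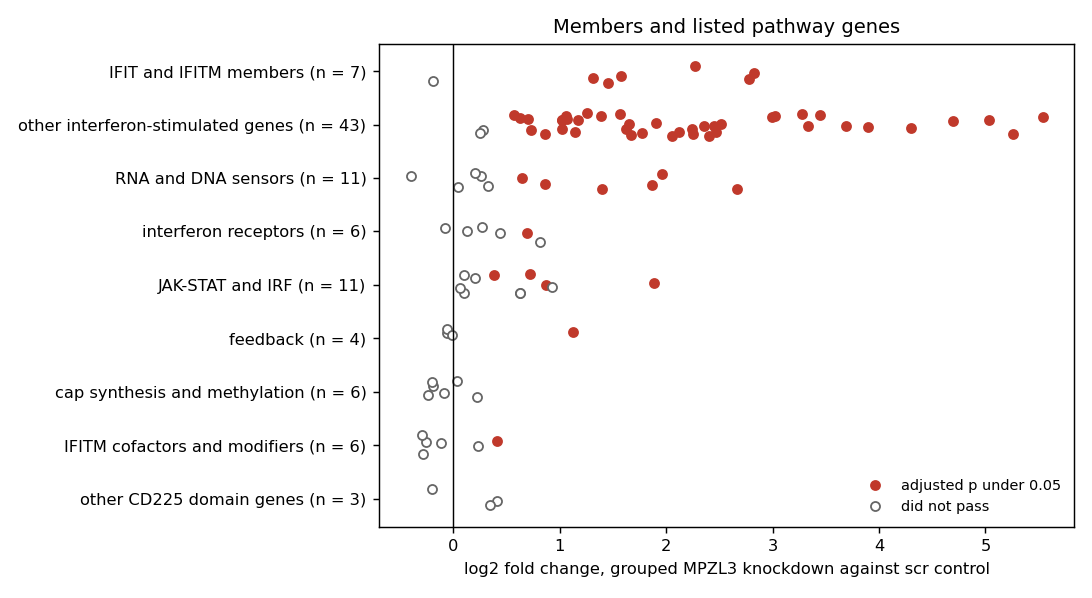
Log2 fold change in the grouped comparison (horizontal axis) of the 7 members and of the tested genes of 8 lists, 1 point per gene, filled where the edgeR adjusted p was under 0.05. Members sit between -0.19 and 2.83, within the range of the 43 other interferon-stimulated genes on the high side, whereas genes of cap synthesis, IFITM cofactors and other CD225 genes lie between -0.29 and 0.41.

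Genes tied to the members by function were also listed. Of 6 genes that make or methylate the mRNA cap that IFIT1 reads, 0 were called in the grouped comparison. They included the capping enzyme RNGTT (log2 fold change -0.19), the cap methyltransferases RNMT (-0.23) and CMTR2 (0.22), and PCIF1 (-0.20). With shMPZL3 #2 alone RNMT was called lower (-0.43, edgeR adjusted p = 0.0153), and with shMPZL3 #1 alone none was called. Of 6 genes whose products modify or assist IFITM3, SETD7, a methyltransferase reported to act on IFITM3, was called higher (0.41 ± 0.11 SE, edgeR adjusted p = 0.029), a call lost when any of the control libraries was left out. AP2M1, the adaptor subunit that takes IFITM3 up from the cell surface (-0.25), the cofactor ZMPSTE24 (-0.28) and the palmitoyltransferase ZDHHC20 (-0.29) did not pass in the grouped comparison, nor did NEDD4 and VCP. In the single-hairpin comparisons AP2M1 was called lower with shMPZL3 #1 (-0.29, edgeR adjusted p = 0.0279), and ZMPSTE24 (-0.34, edgeR adjusted p = 0.0496) and ZDHHC20 (-0.44, edgeR adjusted p = 0.0155) were called lower with shMPZL3 #2. SETD7 was called higher with each hairpin. Of 9 other genes of the CD225 domain family, to which the IFITM genes belong, TMEM91, PRRT2 and SYNDIG1L passed the filter and none was called, with 0 also in each single-hairpin comparison. IFIT1B, a further IFIT gene of the cluster, had at most 5 counts in a library.

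The clusters were set against their surroundings, taking every gene of the table that starts within 250 kb of a member. Around the IFIT cluster 3 of 15 neighbours passed the filter. LIPA, the lysosomal acid lipase gene on the opposite strand, has an annotated span (chr10:89213569-89414557) that takes in IFIT2, IFIT3 and IFIT1. Among the members its exons overlap only those of IFIT2, in the 65 bases. LIPA was called higher (log2 fold change 0.67 ± 0.17 SE, edgeR adjusted p = 0.0202), a call lost when any of the control libraries was left out. It was also called higher with shMPZL3 #1 alone (0.91, edgeR adjusted p = 5.55e-05) and with shMPZL3 #2 alone (0.39, edgeR adjusted p = 0.0406). Its level was lower with shMPZL3 #2 than with shMPZL3 #1 (-0.52, edgeR adjusted p = 0.00882). SLC16A12 (0.28) and PANK1 (-0.15) did not pass. Around the IFITM cluster 16 of 44 neighbours passed the filter and 0 were called in the grouped comparison, with log2 fold changes from -0.21 to 0.58. The tested genes closest to that cluster were PGGHG on the side of IFITM2 (-0.09) and B4GALNT4 on the side of IFITM3 (0.09). With shMPZL3 #1 alone PSMD13 was called lower (-0.37, edgeR adjusted p = 0.0137) and MIR210HG higher (0.62, edgeR adjusted p = 0.0373), and with shMPZL3 #2 alone none was. BET1L, RIC8A, SIRT3, PKP3, SIGIRR, ANO9, PTDSS2, RNH1, HRAS, LRRC56, LMNTD2 and RASSF7 were the other tested neighbours.

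**Figure D5:**
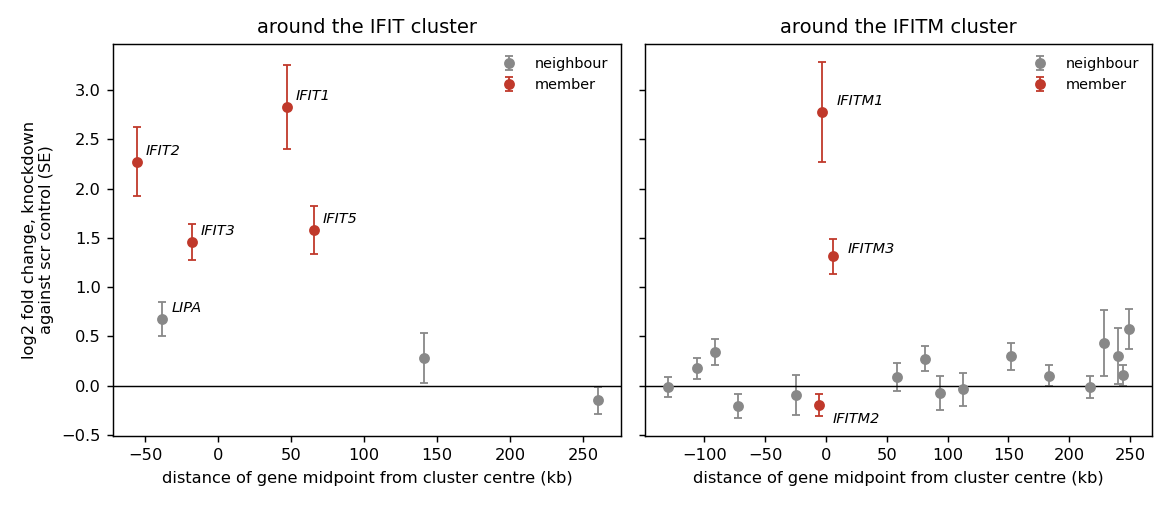
Log2 fold change ± SE in the grouped comparison (vertical axis) against the distance of each tested gene's midpoint from the centre of the IFIT cluster (left) or the IFITM cluster (right), in kb, with members in red. LIPA (0.67) is the only neighbour called, and IFITM2 (-0.19) lies among the neighbours of its cluster.

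Finally, the tested genes with the most similar pattern were listed for each member, 3 each, by the root mean square difference of centred log2 CPM over the 9 libraries among 12932 genes averaging a log2 CPM of 1 or more. IFIT3 was closest to PARP14 (0.143), PARP9 (0.145) and ADM (0.148), and IFIT5 to PARP9 (0.114), ARRDC4 (0.143) and PARP14 (0.146). IFIT1 was closest to FN1, LIPH (both 0.328) and ISG15 (0.36), and IFIT2 to CPA4 (0.218), IL1A (0.257) and NOD2 (0.276). For IFITM1 they were GAS6-DT (0.298), FN1 (0.308) and ERVV-2 (0.361), for IFITM3 WFDC2 (0.149), MUC1 (0.157) and PML (0.161), and for IFITM2 KAT8 (0.0546), SRRM2 (0.0615) and CIAPIN1 (0.0627). The list of other interferon-stimulated genes held 6 of these 21 entries. The measure is over 9 libraries that share their groups, and a gene that changed little is close to many others, as the small values of IFITM2 show.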

How the data were processed

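The deposited file holds raw read counts per gene for 9 OVCAR4 libraries (3 per group, described by the study as biological replicates). The authors' processing notes name HISAT2 2.0.5, featureCounts 1.5.0-p3 and hg38; libraries were poly-A selected and not directional, and how reads with several matches were counted is not given in the sources used here. Gene lengths are those deposited beside the counts. Every identifier and position equalled GENCODE 29. The members and gene lists were chosen with earlier results of these data known.

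Counts were filtered (filterByExpr), scaled by TMM and tested with edgeR 4.0.16 in R 4.3.3 (glmQLFit, glmQLFTest, two-sided, Benjamini-Hochberg over 16928 genes), after a test on simulated data. The grouped comparison set 6 knockdown against 3 control libraries, and a 3-group fit gave each hairpin and their difference. SE is the absolute log2 fold change divided by the square root of F. CPM and RPKM use TMM library sizes. Log2 CPM (prior count 2) served the exact permutation tests (two-sided). Named were all members, the 4 lowest grouped p values of each list, every tested receptor, JAK-STAT, IRF and feedback gene, tested neighbours and 3 most similar genes per member. DESeq2 1.42.0, limma-voom 3.58.1, other scalings, filters and thresholds, a replicate block and leaving out each library were alternatives. Replicates of a group differed by more than sampling noise. Proteins of the members were not analysed here, and 1 listed gene is not reported here.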

Additional observations from a re-analysis of the deposited data

Results flagged for a closer look

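Between the hairpins, at the same contrast with scr control, the rise differed by the edgeR test for IFITM1, with a log2 difference of 1.52 for shMPZL3 #2 minus shMPZL3 #1 (adjusted p = 0.00063). Over all genes tested 7.56% were called higher and 7.56% lower there. The difference was not particular to IFITM1. Of the 43 other interferon-stimulated genes 12 were called higher with shMPZL3 #2 and 0 lower, with a median log2 difference of 0.36. Among the listed genes named by the rule, IRF7 (1.24) and the endothelial marker CDH5 (1.39) were higher with shMPZL3 #2 in the same test. TLR3 (-0.77), the cap methyltransferase RNMT (-0.37) and the collagen genes COL1A1 (-0.75) and COL1A2 (-1.24) were lower with shMPZL3 #2. Among the same libraries MPZL3 itself was higher with shMPZL3 #2 (1.28), the hairpin with the shallower knockdown, and whether this bears on IFITM1 was not tested. No member had a knockdown library outside Dixon's limit for 6 values on the log2 CPM scale.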

How the results depend on the processing

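In the 3 comparisons with scr control the same 6 members were called, and IFITM2 was not, under all 19 alternatives of each: DESeq2, limma-voom, RLE or upper-quartile scaling, no filter or at least 10 counts in every library, other thresholds, other samples in the fit, the replicate block and each library left out. Between the hairpins the count of 1 became 2 with limma-voom, 4 with no filter on low counts and 4 with the replicate block, and ran from 1 to 3 as single libraries were left out; the cause was not tested. The members added were IFIT1 with limma-voom, and IFIT1, IFIT2 and IFITM3 without the filter and with the block. The log2 difference of IFIT3 between the hairpins ran from -0.0602 to 0.273 as single libraries were left out. The replicate numbers were not taken to pair the samples, since deviations of same-numbered libraries from their group means correlated between -0.00143 and 0.218 (0.0966 to 0.218 between the hairpins) and the labels give the number no meaning. As a hint from the data, 13 of 18 library and group combinations correlated best with their own number. With the block, edgeR adjusted p between the hairpins was 2.4e-05 for IFIT1 and 0.000276 for IFIT2. IRF7 lost its call also with limma-voom. Leaving out a control library lowered the number of calls over all genes. In the grouped comparison 2667 genes were called in either direction, and 625, 962 and 1238 without replicates 1, 2 and 3 of scr control. Summing the IFITM genes, added after seeing the data, gave a called difference between the hairpins (0.48, edgeR adjusted p = 0.0301). Of the 21 most similar genes named, 19 were the same with a prior count of 0.5. Members with the fewest counts are limited by depth: IFIT1 had 37 counts in its lowest library. Intervals and tests cover libraries of a single line.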
